A study of Mus musculus with 3 samples.

Results

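The genes examined here were 44 regulators of DNA methylation and chromatin, chosen by name, and they made up 44 of the 37072 genes read by the arrays. They fell into 4 groups. The 6 genes of DNA methylation were *Dnmt1*, *Dnmt3a*, *Dnmt3b*, *Tet1*, *Tet2* and *Tet3*. The 18 Polycomb genes were *Ezh1*, *Ezh2*, *Eed*, *Suz12*, *Jarid2*, *Bmi1*, *Ring1*, *Rnf2*, *Cbx2*, *Cbx6*, *Cbx7*, *Cbx8*, *Phc1*, *Phc2*, *Phc3*, *Asxl1*, *Asxl2* and *Bap1*. The 9 genes of histone methylation were *Kdm1a*, *Kdm6b*, *Men1*, *Dot1l*, *Setdb1*, *Ehmt1*, *Ehmt2*, *Suv39h1* and *Suv39h2*, and the 11 genes of histone acetylation and its complexes were *Hdac1*, *Hdac2*, *Hdac3*, *Sirt1*, *Sirt6*, *Sirt7*, *Ep300*, *Crebbp*, *Kat6a*, *Mbd3* and *Chd4*.

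The RNA came from LT-HSCs (long-term hematopoietic stem cells), the self-renewing cells at the top of the blood system, sorted from the bone marrow of C57BL/6J mice. The mice were WT, AtmsKO, in which *Atm* had been deleted, or Atmp38dKO, in which *Atm* and *p38α* (*Mapk14*) had both been deleted. *Atm* encodes a kinase that signals DNA breaks, and *p38α* encodes a stress-activated MAP kinase. For each genotype Cy3-labelled total RNA was hybridized to 1 Agilent array, so that each comparison below sets 1 array against another, with no replicates, no error between mice and no test.

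Deletion was driven by CAG-CreERT2, a Cre recombinase under a promoter active in nearly all cells that enters the nucleus once tamoxifen (TAM) is given, so that cells other than HSCs had also lost the genes. The deposited design text places the TAM injections at an age of about 5 weeks and the analysis 4 weeks afterwards, whereas the sample labels give an age of 11 weeks for all 3 groups. Controls in the study's methods received TAM as well and carried floxed alleles but no Cre. The labels give the sorted cells as CD150+CD48-Flt3-CD34- LSK, where LSK stands for cells that lack lineage markers and carry Sca-1 and c-Kit. The deposited design text names CD34 and Flt3 but neither CD150 nor CD48, and the study's methods add the absence of CD41. How many mice were pooled for an array was not given in the sources used here. In RNA of a sorted population, fewer cells with a message and less message per cell cannot be told apart.

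DNA methylation is written by DNA methyltransferases and removed through oxidation by TET enzymes, and loss of *Dnmt3a* or *Tet2* is known to expand HSC clones in mice and in humans. Polycomb repressive complex 2 places methyl groups on lysine 27 of histone H3, and Polycomb repressive complex 1 reads that mark and places ubiquitin on histone H2A. Further enzymes methylate and demethylate other lysines, and acetyltransferases and deacetylases open and close chromatin, so that together these proteins keep the genes of the stem cell program and of mature blood lineages on or off.

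Each gene was read by oligonucleotide probes of 60 bases. There were 108 probes for the 44 genes, from 1 to 6 for a gene, and the brightest probe stood for the gene. The sequences of 5 of these probes are shown first, because they bear on what the arrays could read for *Suv39h2*, *Crebbp* and *Cbx8*. *Suv39h2* and *Crebbp* were the only ones of the 44 genes with signals over 10000, and their brightest probes were made up in good part of a short repeated unit. Below, the first 30 of 60 bases are given 5′ to 3′ for the brightest and the next probe of both genes, with runs of GT in capitals for *Suv39h2* and runs of CAG in capitals for *Crebbp*. All lay on the minus strand of the mm9 genome.
Suv39h2 brightest probe, chr2:3373186-3373245: ttcgggGTGTGTGTGTctGTGTGTGTGTGT
Suv39h2 next probe, chr2:3375194-3375253: tagaagtctatagtggctggccattgtgct
Crebbp brightest probe, chr16:4084710-4084769: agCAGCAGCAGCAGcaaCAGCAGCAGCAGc
Crebbp next probe, chr16:4094241-4094300: tgtcggaatctttcccatatcgtaccaaag

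The signal of the brightest *Suv39h2* probe was 65881 for WT, 55143 for AtmsKO and 60412 for Atmp38dKO, whereas the next probe of the same gene gave 18.9, 32.3 and 43.4. The brightest *Crebbp* probe gave 15304, 13656 and 16369 in the same order, and the next one 302, 295 and 313. High signals were common among probes of this kind over the whole array. Of the 56600 probes, 239 held at least 6 copies in a row of a 2-base unit, as the brightest *Suv39h2* probe did with 6 copies of TG, and their median signal on the WT array was 24348 against 22.4 for all probes. Of these 239 probes 59.8% had a signal over 10000 on the WT array, against 0.882% of all probes. Another 76 probes held at least 5 copies in a row of a 3-base unit, as the brightest *Crebbp* probe did with 6 copies of CAG, and their median signal was 1228. These were the only 2 of the 108 probes of the 44 genes with such a run. How much of either signal came from the named gene was not tested.

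**Figure D1:**
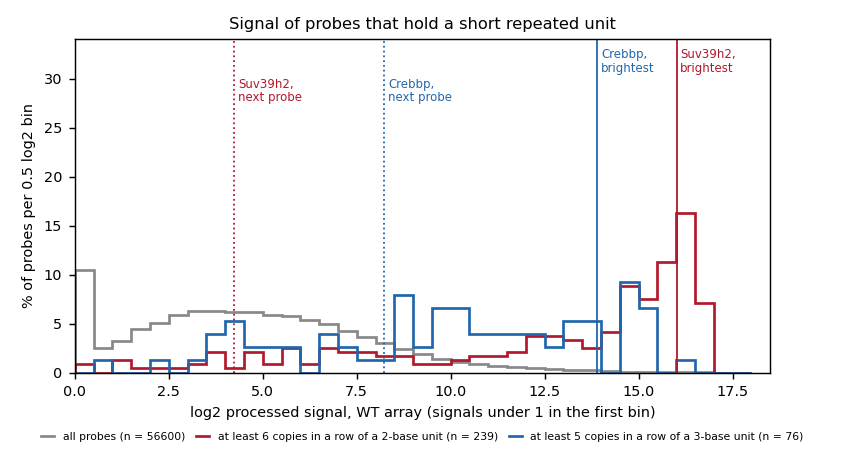
Distribution of the log2 processed signal on the WT array (x axis) as the percentage of probes in each bin of 0.5 (y axis), for all 56600 probes, for 239 probes with a repeated 2-base unit and for 76 probes with a repeated 3-base unit. The brightest *Suv39h2* and *Crebbp* probes (solid lines, signals of 65881 and 15304) lie among the bright repeat probes, and the next probes of both genes (dotted lines, 18.9 and 302) lie in the range of ordinary probes.

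For *Cbx8*, which encodes a subunit of Polycomb repressive complex 1 that binds methylated lysine 27, the dimmer of its 2 probes is shown with G and C in capitals, because it gave no reading to set beside the largest difference found at the brightest probe of any of the 44 genes. The brighter *Cbx8* probe was not listed for a RefSeq message. The dimmer one was listed for the RefSeq message of *Cbx8*, lay on the minus strand and held 11 G or C among its 60 bases, against a median of 25 over all probes.
Cbx8 next probe, chr11:118899777-118899836: aattatCtCtaGaGttCtattttCtattaG

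The RefSeq-listed *Cbx8* probe was not well above background on any of the 3 arrays. On the whole array 85 probes held at most 11 G or C, and 56.5% of them were below that limit on all 3 arrays, against 18.7% of all probes. Whether base content or a low level of the *Cbx8* message made this probe dim was not tested.

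The arrays themselves were alike in range. Between 68.9% and 77.7% of probes were well above background, the median signal lay between 20.7 and 26.3 and no spot was saturated, and repeat spots of probes printed 10 times had a median SD of 0.05 (log2), which covers error within an array only. The 75th percentile of signal, to which each array was scaled, was 102 for WT, 96.2 for AtmsKO and 118 for Atmp38dKO, so that unscaled signals ran slightly higher on the last array. All 11 LT-HSC marker genes examined, among them *Kit*, *Slamf1*, *Procr*, *Mecom* and *Hlf*, were well above background on every array. Messages of *Cd34*, *Flt3*, *Cd48* and *Ptprc* were also well above background on every array, although the sort had excluded cells with CD34, Flt3 and CD48 at the surface.

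The deleted genes checked the labels only in part. *Atm* had signals of 87.0, 23.9 and 86.5 at its brightest probe and of 88.8, 16.3 and 49.0 at the other, in the order WT, AtmsKO, Atmp38dKO, which is kept throughout. *Mapk14* had signals of 469, 558 and 616 at its brightest probe and of 295, 260 and 345 at the other. After scaling, *Atm* was lower on the AtmsKO array than on the WT array at both probes, by 1.79 and 2.37 on the log2 scale. On the Atmp38dKO array the log2 differences of *Atm* against WT were -0.22 and -1.07 and those of *Mapk14* were 0.18 and 0.01. The exons deleted were not given in the sources used here, so whether these probes lay within them could not be checked. The third array is therefore called the array labelled Atmp38dKO, and every direction given for it rests on that label.

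Marker genes also differed between the arrays. The LT-HSC markers had a median log2 difference of -0.48 between the array labelled Atmp38dKO and the WT array, with *Fgd5* and *Hoxb5* at least 2-fold lower, and of 0.08 between the AtmsKO and WT arrays. The 7 erythroid genes examined were well above background on all arrays, and their summed signal was 713, 877 and 1208, of which *Hbb-bt* alone made up 137, 331 and 460. After scaling, 4 of the 7 were above WT and 3 below it on the AtmsKO array, and all 7 were above WT on the array labelled Atmp38dKO. The 6 megakaryocyte genes were all well above background, with sums of 1741, 3050 and 2284, of which *Pf4* alone made up 1020, 2366 and 1536. The 16 cell cycle genes had median log2 differences of 0.15, -0.03 and -0.17 for AtmsKO against WT, Atmp38dKO against WT and Atmp38dKO against AtmsKO, with none at least 2-fold higher or lower. Summed signals of granulocyte and monocyte genes were 6227, 6261 and 7702, and those of mast cell and basophil genes 77.4, 74.6 and 117, of which 3 of 6 were well above background on all arrays. Those of B cell genes were 344, 322 and 389, those of T cell genes 661, 647 and 902, and those of stromal and endothelial genes 208, 276 and 197, with the endothelial *Cdh5* at background on every array and *Kdr* at 5.88, 114 and 18.1. The sums above were not scaled. After scaling, the log2 differences of the sums for AtmsKO and Atmp38dKO against WT were 0.09 and 0.09 for granulocyte and monocyte genes. They were -0.02 and -0.04 for B cell genes and 0.05 and 0.23 for T cell genes. Mast cell and basophil genes were at 0.02 and 0.38, and stromal and endothelial genes at 0.49 and -0.29. Erythroid genes were at 0.38 and 0.55 and megakaryocyte genes at 0.89 and 0.18. Of the 6 megakaryocyte genes, 3 were above and 3 below WT on the array labelled Atmp38dKO, with *Gp5* lowest at -1.54. The part of these shifts in the values of the 44 genes was not tested.

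All 44 genes were well above background on all 3 arrays at their brightest probe, and few of them differed much between genotypes. That probe was not listed for a RefSeq message for 6 of the genes, *Cbx7*, *Cbx8*, *Phc1*, *Dot1l*, *Ehmt1* and *Hdac1*. A gene was counted as higher or lower if it differed at least 2-fold after each array had been scaled to its 75th percentile and was well above background on the brighter array. Against WT, *Hdac3* was higher and *Cbx8* was lower on the AtmsKO array, and no gene of the 44 was counted in either direction on the array labelled Atmp38dKO. *Jarid2* was higher on the array labelled Atmp38dKO than on the AtmsKO array, and none was lower.

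These counts did not exceed the shares of all genes. For AtmsKO against WT, 1 of 44 was higher, or 2.27%, against 3.94% of 28866 genes, and 1 of 44 was lower, against 4.09%. For Atmp38dKO against WT the shares of all genes were 4.02% higher and 4.49% lower, with 0 of the 44 in either direction. For Atmp38dKO against AtmsKO, 1 of 44 was higher against 3.75% of all genes, and 0 were lower against 3.72%. At 1.5-fold, 2 genes were higher and 2 lower on the AtmsKO array than on the WT array, where 10.1% and 10.2% of all genes were. On the array labelled Atmp38dKO 0 were higher and 3 lower than on the WT array, where 11% and 10.6% of all genes were, and against AtmsKO 2 were higher and 2 lower, where 10.1% and 8.81% of all genes were. At 8-fold the count of the 44 genes was 0 in every comparison and direction, where the shares of all genes higher and lower were 0.315% and 0.263% for AtmsKO against WT, 0.102% and 0.332% for Atmp38dKO against WT, and 0.0899% and 0.356% for Atmp38dKO against AtmsKO.

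The median log2 difference over the 44 genes was -0.01 for AtmsKO against WT, -0.07 for Atmp38dKO against WT and -0.06 for Atmp38dKO against AtmsKO, beside 0.01, 0.02 and 0.00 over all genes. The size of the difference, leaving out its sign, had a median of 0.22, 0.21 and 0.18 over the 44 genes and of 0.25, 0.26 and 0.24 over all genes. In the same order 37, 40 and 39 of the 44 genes, or 84.1%, 90.9% and 88.6%, lay within 0.5 of zero on the log2 scale, and 75.2%, 73.2% and 76.4% of all genes did. Differences of dim genes spread more widely on these arrays, as the plot of difference against mean signal shows, and the median signal of the 44 genes at their brightest probe was 291, 299 and 314. The part of signal level in the narrower spread of the 44 genes was not tested.

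**Figure D2:**
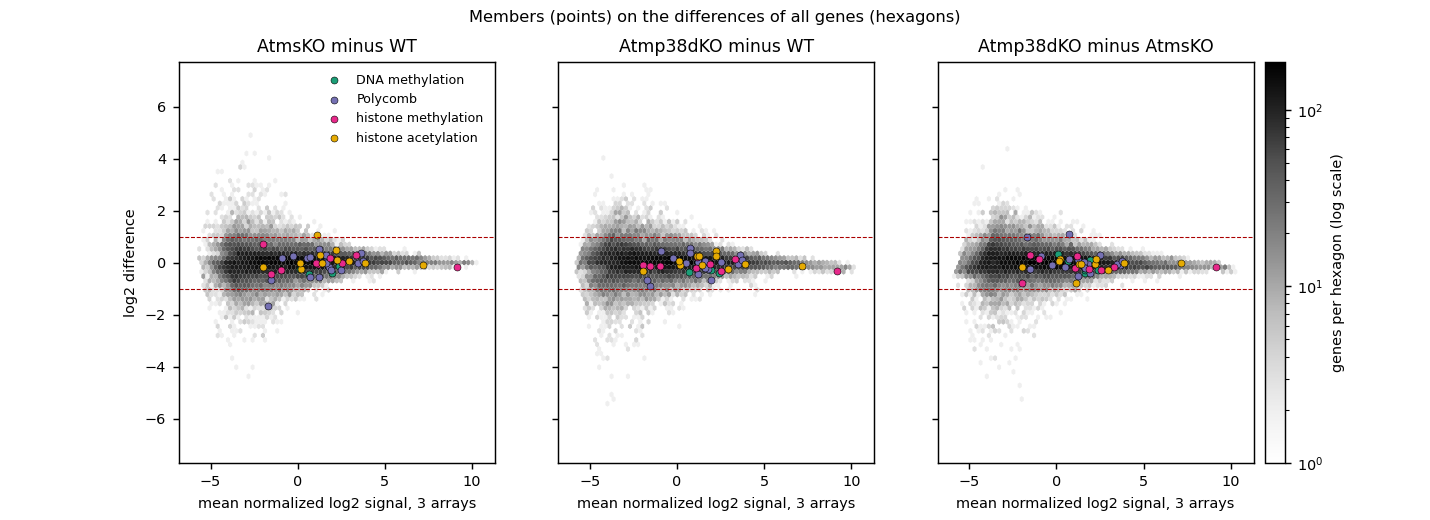
Log2 difference between arrays (y axis) against the mean normalized log2 signal over the 3 arrays (x axis, 0 is the 75th percentile of an array) for all genes (hexagons, shaded on a log scale by the number of genes) and for the 44 genes (points, coloured by group), with dashed lines at a 2-fold difference. *Cbx8* and *Hdac3* lie past the lines in the comparison of AtmsKO with WT and *Jarid2* in that of Atmp38dKO with AtmsKO, while 84.1% to 90.9% of the 44 genes lie within 0.5 of zero.

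Among the genes of DNA methylation none differed 1.5-fold in any comparison at its brightest probe. Their median log2 difference was -0.19 for AtmsKO against WT, -0.22 for Atmp38dKO against WT and -0.11 for Atmp38dKO against AtmsKO. *Dnmt1*, the maintenance methyltransferase that copies methylation onto the new DNA strand, had signals of 114 for WT, 90.5 for AtmsKO and 140 for Atmp38dKO. Its log2 differences were -0.26 for AtmsKO and 0.07 for Atmp38dKO against WT at its only probe, an order also kept for the pairs of log2 differences against WT given below, so that it was lowest on the AtmsKO array and nearly level on the other two.

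*Dnmt3a*, a de novo methyltransferase that restrains HSC self-renewal, had signals of 308, 346 and 323, with log2 differences of 0.24 for AtmsKO and -0.15 for Atmp38dKO against WT. Its next probe gave 176, 144 and 149, with log2 differences of -0.21 and -0.46, and a dimmer one gave 0.16 and 0.32. The probes of *Dnmt3a* thus placed the AtmsKO array on opposite sides of the WT array. *Dnmt3b*, the other de novo methyltransferase, had signals of 608, 527 and 528 at its brightest probe and of 231, 324 and 409 at the next. The log2 differences against WT were -0.13 and -0.42 at the first and 0.56 and 0.61 at the second, so that both mutant arrays were below WT at 1 probe and above it at the other.

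The TET enzymes oxidize methylated cytosine as the first step of its removal. *Tet1* had signals of 459, 332 and 432, and its other probes gave 187, 250 and 244, and 52.3, 72.4 and 86.1. Log2 differences for AtmsKO against WT were -0.39 at the brightest probe and 0.50 and 0.55 at the others. *Tet1* was therefore lower on the AtmsKO array only at its brightest probe.

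*Tet2*, whose loss gives HSCs a competitive advantage, had signals of 319, 339 and 340, and its log2 differences against WT of 0.17 and -0.12 lay close to zero. At its next probe the signals were 49.4, 63.7 and 80.0, with log2 differences of 0.44 and 0.48. *Tet3* had signals of 195, 137 and 175 at its brightest probe and of 114, 88.7 and 112 at the other. Its log2 differences were -0.44 and -0.28 for AtmsKO against WT and -0.37 and -0.24 for Atmp38dKO against WT, which made *Tet3* the only gene of the 6 with more than 1 probe at which all probes lay below WT on both mutant arrays.

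**Figure D3:**
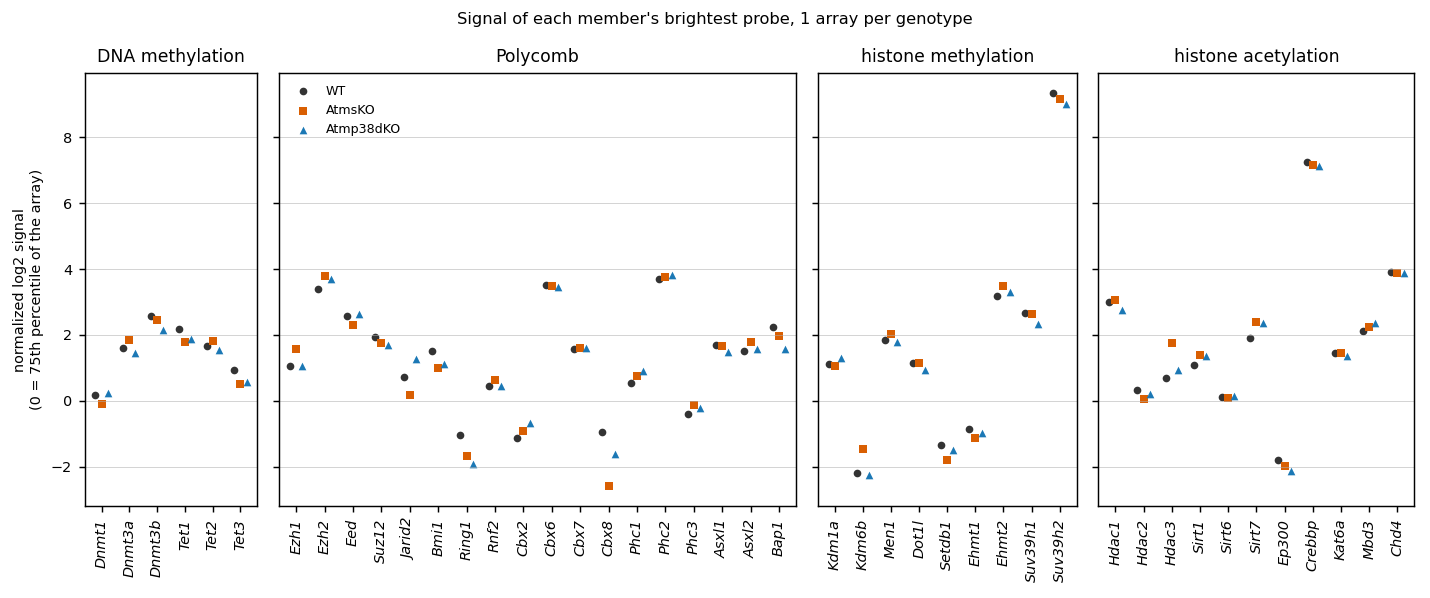
Normalized log2 signal (y axis, 0 is the 75th percentile of the array) of the brightest probe of each of the 44 genes (x axis) on the WT (circles), AtmsKO (squares) and Atmp38dKO-labelled (triangles) arrays, 1 array each. Symbols of a gene can be compared with each other but not with those of another gene, since each probe has its own brightness, and they overlap for most genes while *Cbx8*, *Jarid2*, *Ring1*, *Kdm6b* and *Hdac3* spread most.

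The Polycomb genes, 18 of the 44, held 2 of the 3 genes past 2-fold, in different comparisons. Their median log2 differences were 0.00, 0.02 and -0.06 for AtmsKO against WT, Atmp38dKO against WT and Atmp38dKO against AtmsKO. The core of Polycomb repressive complex 2 consists of a methyltransferase, *Ezh2* or *Ezh1*, with *Eed* and *Suz12*. *Ezh2* had signals of 1071, 1327 and 1516 at its brightest probe, with log2 differences of 0.39 for AtmsKO and 0.29 for Atmp38dKO against WT. All 5 probes of *Ezh2* were higher on the AtmsKO array than on the WT array, by 0.09 to 0.54 on the log2 scale, and none of them reached 2-fold. On the array labelled Atmp38dKO, 3 of the 5 were above WT and the other two were below, at -0.23 and -0.30.

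*Ezh1*, the methyltransferase of quiescent and adult cells, had signals of 210, 287 and 246 at its brightest probe and 21.5, 31.0 and 27.3 at the next. The log2 differences for AtmsKO against WT were 0.53 and 0.60 and those for Atmp38dKO against AtmsKO were -0.51 and -0.48. *Ezh1* was therefore highest on the AtmsKO array at these probes and nearly level on the other two arrays, with log2 differences of 0.02 and 0.13 for Atmp38dKO against WT. Another *Ezh1* probe went the opposite way. It was well above background on the WT array alone, where its signal was 9.04, and its bounds against WT were at least 1.40-fold lower for AtmsKO and at least 2.11-fold lower for Atmp38dKO.

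*Eed*, which binds the methyl mark, had signals of 611, 479 and 727, or log2 differences of -0.28 and 0.03 against WT at its only probe. *Suz12*, which holds the complex together, had signals of 389, 324 and 382 and log2 differences of -0.19 and -0.24 against WT. A dimmer *Suz12* probe that was not listed for a RefSeq message gave 125, 135 and 313, which is 1.11 on the log2 scale for Atmp38dKO against WT. The third array thus lay more than 2-fold above WT at that probe and slightly below it at the brightest.

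*Jarid2*, which recruits the complex to its targets, had signals of 167 for WT, 108 for AtmsKO and 284 for Atmp38dKO. The log2 differences were -0.55 for AtmsKO against WT, 0.55 for Atmp38dKO against WT and 1.105 for Atmp38dKO against AtmsKO, the last being the only difference of a brightest probe of the 44 genes that was 2-fold higher on the array labelled Atmp38dKO. The other *Jarid2* probes gave 26.2, 13.6 and 16.4, and 7.46, 17.7 and 23.2. Their log2 differences for Atmp38dKO against AtmsKO were -0.02 and 0.10, and for AtmsKO against WT they were -0.87 and 1.33, so the 3 probes gave 3 different orders of the arrays.

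In Polycomb repressive complex 1, *Ring1* and *Rnf2* encode the ubiquitin ligases and *Bmi1* a partner that HSCs need for self-renewal. *Ring1* had signals of 49.8, 30.1 and 31.1 at its only probe, and its log2 differences of -0.65 and -0.89 placed both mutant arrays below WT. *Rnf2* had signals of 139, 149 and 161 and log2 differences of 0.18 and 0.00. *Bmi1* had signals of 293, 191 and 253 at its brightest probe and 94.3, 110 and 148 at the other. Against WT its log2 differences were -0.54 and -0.42 at the first and 0.29 and 0.43 at the second, so that the probes again lay on opposite sides of WT.

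The CBX proteins give the complex its grip on methylated histone H3. *Cbx8* had signals of 52.8 for WT, 15.95 for AtmsKO and 38.5 for Atmp38dKO at its brightest probe, with log2 differences of -1.65 and -0.67 against WT and of 0.98 between the mutant arrays. It was lowest on the AtmsKO array, by 3.14-fold against WT, and the RefSeq-listed probe gave no second reading because it was dim on all arrays. With a different background correction (normexp) the log2 difference for AtmsKO against WT was -0.56. *Cbx7*, the main CBX protein of HSCs, had signals of 305, 290 and 359 and log2 differences of 0.01 and 0.02 against WT at a probe not listed for a RefSeq message, and of -0.71 and -0.65 at the RefSeq-listed one. *Cbx2* had signals of 47.0, 50.6 and 74.8, and *Cbx6* had 1151, 1089 and 1280, with log2 differences against WT between -0.06 and 0.46 for both genes.

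The PHC proteins hold Polycomb complexes together in larger assemblies. The brightest probes of *Phc1*, *Phc2* and *Phc3* had log2 differences between 0.05 and 0.36 against WT on both mutant arrays. A second *Phc3* probe gave 44.2, 19.6 and 23.8, or log2 differences of -1.09 and -1.11, and a second *Phc2* probe gave 58.9, 34.1 and 42.2, or -0.71 and -0.70. Those readings placed both mutant arrays below WT, where the brightest probes had placed them slightly above it.

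*Bap1* encodes the enzyme that removes ubiquitin from histone H2A, with *Asxl1* or *Asxl2* as its cofactor. *Bap1* had signals of 476, 375 and 350 at its brightest probe, with log2 differences of -0.27 and -0.66 against WT, and 205, 331 and 326 at the other, with 0.77 and 0.45. The brightest probe passed 1.5-fold in the comparison of Atmp38dKO with WT, and the other probe went the opposite way. *Asxl1* had signals of 327, 308 and 327, and *Asxl2* had 289, 333 and 354, and the log2 differences of both against WT lay between -0.21 and 0.28 at these brightest probes. The other *Asxl1* probe was at -0.57 and -0.19, and the other *Asxl2* probes ran from -0.47 to 0.62.

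**Figure D4:**
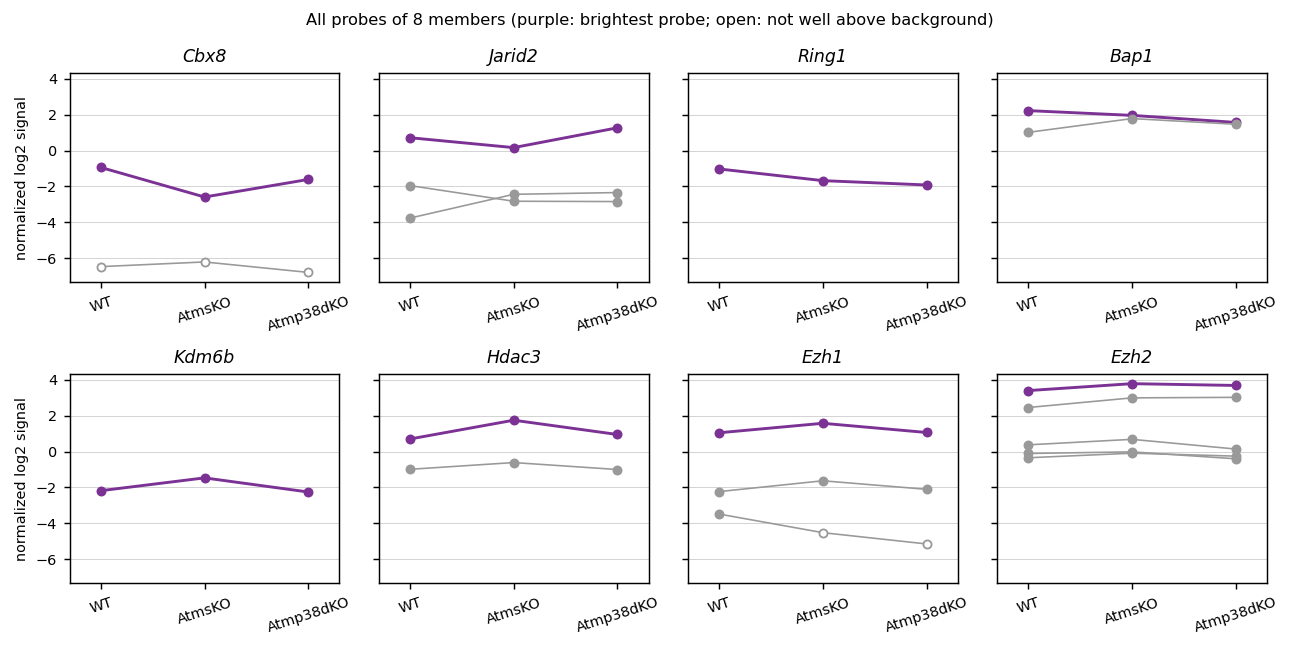
Normalized log2 signal (y axis, 0 is the 75th percentile of the array) of every probe of 8 genes on each of the 3 arrays (x axis, by genotype label), with the brightest probe in purple, other probes in grey and open symbols where a probe was not well above background. The 5 *Ezh2* probes and both *Hdac3* probes are higher on the AtmsKO array than on the WT array, while the probes of *Jarid2* and *Bap1* run in different directions.

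Among the genes of histone methylation, only *Kdm6b* differed 1.5-fold at its brightest probe. Their median log2 differences were -0.03 for AtmsKO against WT, -0.13 for Atmp38dKO against WT and -0.17 for Atmp38dKO against AtmsKO. *Kdm6b*, a demethylase of lysine 27 that acts against Polycomb repressive complex 2, had signals of 22.3, 34.7 and 24.6 at its only probe. Its log2 difference was 0.71 for AtmsKO against WT and -0.79 for Atmp38dKO against AtmsKO, which left the WT array and the array labelled Atmp38dKO nearly level at -0.07. This probe was dim, and with the normexp background correction both differences were smaller, at 0.24 and -0.33.

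*Kdm1a*, the demethylase LSD1, had signals of 219, 202 and 292, and *Men1*, which encodes the menin scaffold of MLL complexes, had 364, 392 and 403. Their log2 differences against WT lay between -0.07 and 0.20. *Dot1l*, the methyltransferase of lysine 79, had signals of 225, 212 and 225 at its brightest probe, and all 4 of its probes were below WT on the array labelled Atmp38dKO, by 0.12 to 0.41 on the log2 scale. None of these probes reached 1.5-fold.

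The remaining genes of this group methylate lysine 9 of histone H3, the mark of silent heterochromatin. *Setdb1* had signals of 40.2, 27.9 and 42.3, *Ehmt1* had 56.6, 44.1 and 60.1, and *Ehmt2* had 923, 1072 and 1165. For AtmsKO against WT the log2 differences were -0.45 for *Setdb1*, -0.28 for *Ehmt1* and 0.29 for *Ehmt2*. Both *Ehmt1* probes were below WT on both mutant arrays, with the second at -0.34 and -0.32.

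*Suv39h1* had signals of 638, 593 and 594 at its brightest probe, with log2 differences of -0.03 and -0.32 against WT, and of 88.0, 37.0 and 57.9 at the other, with -1.17 and -0.82. Both *Suv39h1* probes lay below WT on both mutant arrays, although by very different amounts. *Suv39h2* had log2 differences of -0.18 and -0.34 against WT at the repeat probe shown above and of 0.85 and 0.99 at the next one. The direction for *Suv39h2* therefore depended on which of its probes was read.

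Among the genes of histone acetylation, *Hdac3* was the only one past 1.5-fold at its brightest probe. The group's median log2 differences were 0.00 for AtmsKO against WT, -0.04 for Atmp38dKO against WT and -0.04 for Atmp38dKO against AtmsKO. *Hdac3*, the catalytic subunit of the NCoR and SMRT corepressors, had signals of 165 for WT, 323 for AtmsKO and 227 for Atmp38dKO. The log2 differences were 1.05 for AtmsKO against WT, or 2.07-fold, 0.25 for Atmp38dKO against WT and -0.80 for Atmp38dKO against AtmsKO. At its other probe the signals were 51.0, 62.7 and 58.7 and the log2 difference for AtmsKO against WT was 0.38. *Hdac3* was thus highest on the AtmsKO array at both probes after scaling, but past 2-fold at the brightest probe alone.

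*Hdac1* and *Hdac2*, the deacetylases of the NuRD and SIN3 complexes, had signals of 812, 800 and 803 and of 126, 100 and 136. Against WT their log2 differences lay between -0.26 and 0.06 at these brightest probes. The other *Hdac1* probes gave -0.08 and -0.50, and 0.18 and 0.04. Of the NuRD subunits, *Chd4*, the remodelling ATPase, had signals of 1531, 1431 and 1727 with log2 differences of -0.02 and -0.04 against WT, and *Mbd3* had 445, 456 and 609 with 0.11 and 0.24. The second *Chd4* probe gave 99.8, 101 and 189, with log2 differences of 0.09 and 0.71. The second *Mbd3* probe, with log2 differences of 0.76 and 0.46, was also above WT on both mutant arrays.

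The sirtuins are deacetylases that depend on NAD+. *Sirt1* had signals of 216, 254 and 302 and log2 differences of 0.31 and 0.27 against WT, while its other probe gave -0.01 and -0.32. *Sirt6* had signals of 110, 103 and 132 and log2 differences of -0.01 and 0.04, while its other probe gave 62.3, 23.6 and 55.2, or -1.32 and -0.39. *Sirt7*, which is known to guard HSCs against the stress of misfolded mitochondrial proteins, had signals of 381, 508 and 600 and log2 differences of 0.49 and 0.44. At a dimmer *Sirt7* probe not listed for a RefSeq message the signals were 23.3, 33.1 and 98.8, which is 1.87 on the log2 scale for Atmp38dKO against WT, whereas yet another gave -0.15 and -0.19 against WT.

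*Ep300* and *Crebbp* encode the paralogous acetyltransferases p300 and CBP, and *Kat6a* encodes MOZ, an acetyltransferase that HSCs need. *Ep300* was dim, with signals of 29.1, 24.6 and 26.8 and log2 differences of -0.16 and -0.33 against WT at its brightest probe. The next *Ep300* probe went the opposite way, with signals of 18.7, 20.8 and 31.1 and log2 differences of 0.23 and 0.52. Another *Ep300* probe, not listed for a RefSeq message, gave -0.05 and -0.28. The direction for *Ep300* therefore depended on which of its probes was read. *Crebbp* had log2 differences of -0.09 and -0.12 against WT at the repeat probe and of 0.05 and -0.16 at the next probe, so that it lay close to zero at both. *Kat6a* had signals of 276, 262 and 305 at its brightest probe, with log2 differences of 0.00 and -0.07 against WT, and 126, 68.3 and 64.3 at the other, with -0.80 and -1.18.

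The readings from different probes of a gene were then set side by side. For 33 of the 44 genes at least 2 probes could be compared, being well above background on both arrays of a comparison. The 2 brightest of these probes differed in the same direction for 13 of 33 genes, or 39.4%, in the comparison of AtmsKO with WT, for 14, or 42.4%, in that of Atmp38dKO with WT and for 19, or 57.6%, in that of Atmp38dKO with AtmsKO. Over all genes with 2 such probes the shares were 53.4%, 54.3% and 55.1%. The gap between both probes' log2 differences had a median of 0.45, 0.50 and 0.20 in the 33 genes and of 0.36, 0.37 and 0.35 over all genes, which was larger than the median size of a difference over the 44 genes in each comparison.

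Counting every such probe, 10 of the 33 genes had all probes on the same side for AtmsKO against WT. *Ezh1*, *Ezh2*, *Hdac3* and *Mbd3* were higher on the AtmsKO array at each of them, leaving aside the *Ezh1* probe that was well above background on the WT array alone, and *Tet3*, *Asxl1*, *Ehmt1*, *Suv39h1*, *Sirt6* and *Kat6a* were lower. Of the lower genes, *Asxl1*, *Suv39h1*, *Sirt6* and *Kat6a* lay close to zero at their brightest probe, at -0.007, -0.028, -0.013 and -0.003. For Atmp38dKO against WT this held for 9 genes, with *Ezh1* and *Mbd3* higher and *Tet3*, *Asxl1*, *Dot1l*, *Ehmt1*, *Suv39h1*, *Crebbp* and *Kat6a* lower. Both comparisons use the same WT array. For Atmp38dKO against AtmsKO it held for 15 genes, 6 of them higher and 9 lower. In the remaining genes, 23, 24 and 18 of the 33, the probes did not share a direction. The share of all genes with every probe on the same side was not computed, so these counts have no background beside them.

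**Figure D5:**
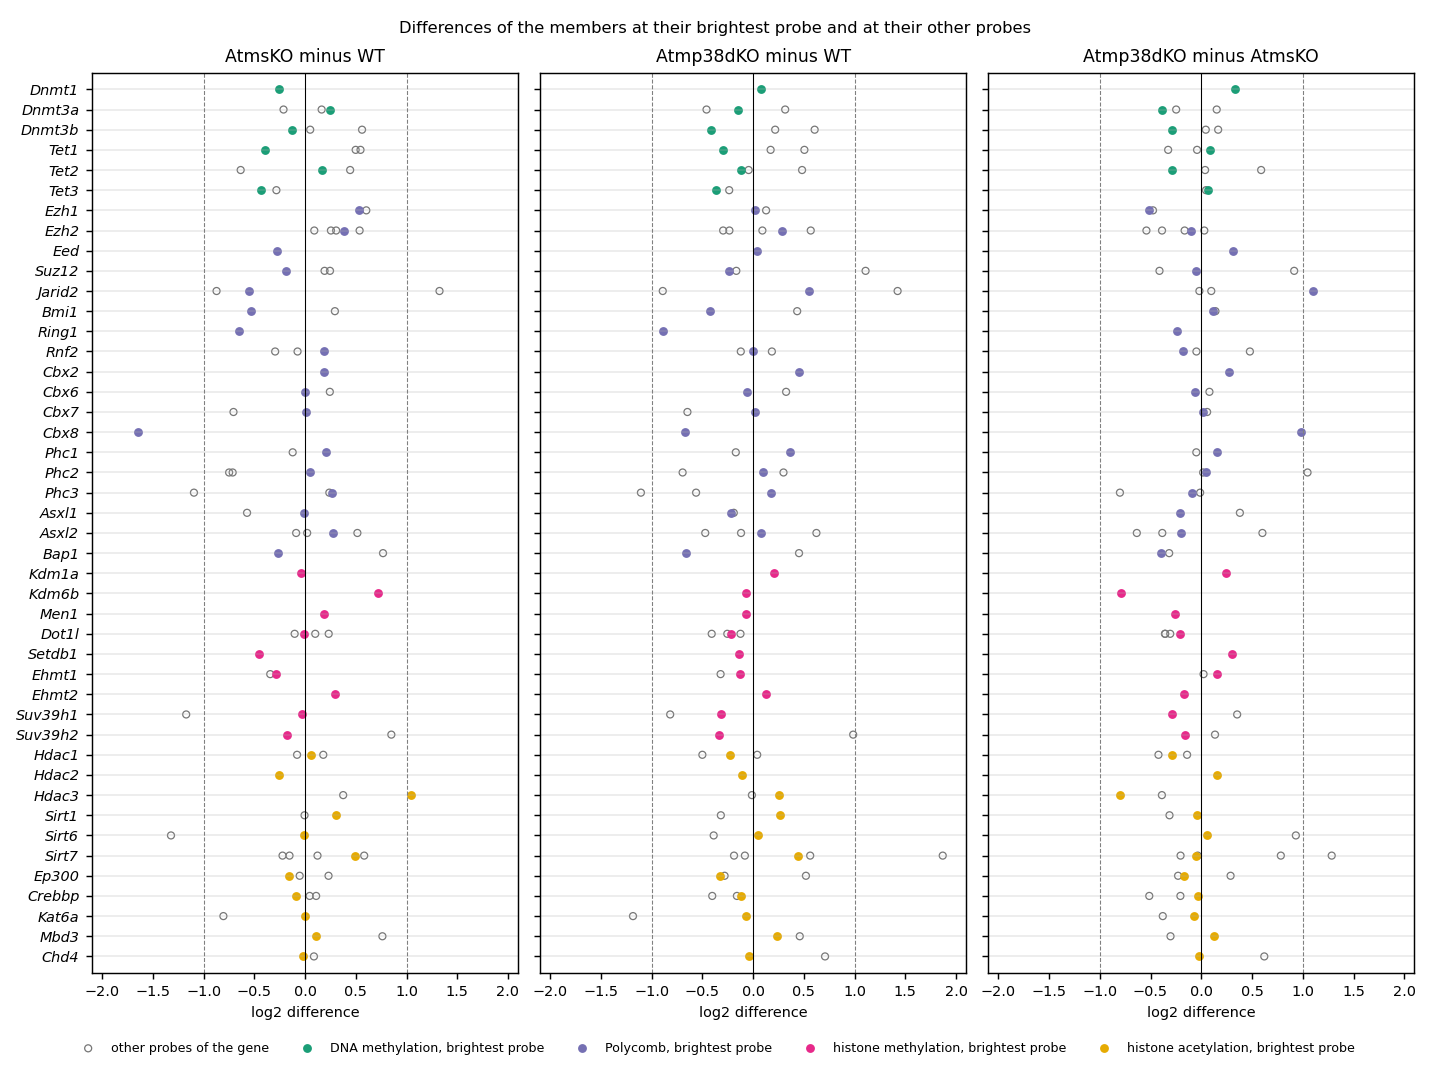
Log2 difference between arrays (x axis) for each of the 44 genes (y axis) at the brightest probe (filled, coloured by group) and at its other probes (open, where well above background on both arrays), with a dashed line at a 2-fold difference in each direction and 1 panel per comparison. Filled points pass a dashed line only for *Cbx8* and *Hdac3* in the first panel and *Jarid2* in the third, and for most genes with several probes the points lie on both sides of zero.

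Of 101 further chromatin genes listed as relatives of the 44, 100 were read by the arrays. For AtmsKO against WT 2 of 100 were at least 2-fold higher and 2 lower, where 3.94% and 4.09% of all genes were. For Atmp38dKO against WT 3 were higher and 6 lower, where 4.02% and 4.49% of all genes were. For Atmp38dKO against AtmsKO 0 were higher and 2 lower, where 3.75% and 3.72% of all genes were. Their median log2 differences were 0.06, 0.02 and 0.01. The counts of the relatives for Atmp38dKO against WT lay near the shares of all genes, whereas 0 of the 44 genes were counted there.

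*Brpf1*, *Kat2a* and *Kdm6a* had the largest values among the relatives. *Brpf1*, which encodes a scaffold subunit of the MOZ acetyltransferase, had signals of 162, 39.1 and 66.1, with log2 differences of -1.97 and -1.50 against WT, and its other measured probes were also lower, at -0.53 for AtmsKO and at -0.51 and -0.80 for Atmp38dKO. *Kat2a*, the acetyltransferase GCN5, had signals of 142, 393 and 121, with 1.54 on the log2 scale for AtmsKO against WT, where its other probe was at 0.41, and -1.995 for Atmp38dKO against AtmsKO where the other probe was at 0.34. *Kdm6a*, the demethylase UTX that removes the Polycomb mark as *Kdm6b* does, had signals of 53.7, 168 and 150, and both of its other probes went the opposite way in both comparisons with WT.

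Further relatives were among the 3 highest or the 3 lowest of a comparison. *Kdm3b*, a lysine 9 demethylase, had signals of 78.4, 24.7 and 37.7 and was at -1.59 on the log2 scale for AtmsKO against WT, with its other probe at -0.37. *Mbd5* had a log2 difference of -0.95 and *Sirt4* of 0.70 in the same comparison. *Hdac9*, a class II deacetylase, had signals of 308, 283 and 135, with log2 differences for the third array of -1.41 against WT and -1.37 against AtmsKO, and its other measured probes shared that direction in 2 of 5 and 2 of 4 cases and reached 0.64 and 0.65 the other way. *Hdac8* had -1.35 for Atmp38dKO against WT, where its other probe was at 0.38. *Mbd4*, a glycosylase that repairs deaminated methylcytosine, had signals of 20.01, 30.6 and 65.1, and *Dnmt3l*, a cofactor of de novo methylation in germ cells, had 12.0, 13.2 and 32.0, so that both were highest on the array labelled Atmp38dKO at their brightest probe. The other *Mbd4* probe was at 0.48 against WT but at -0.29 against AtmsKO. *Pcgf6* had a log2 difference of -0.88 and *Aebp2* of 0.67 for Atmp38dKO against AtmsKO.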

How the data were processed

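LT-HSCs of 3 genotypes were measured on 1 Agilent 1-colour array each, with the sample titles giving the groups. The authors' contractor scanned the arrays and deposited the output of Agilent Feature Extraction 11.5.1.1, whose processed intensity is corrected for background within an array and not scaled between arrays. Their deposited log2 table equalled log2 of the processed intensity minus the array's 75th percentile to within 0.02 for 99.8% (WT), 99.7% (AtmsKO) and 99.6% (Atmp38dKO) of probes. Its median was -2.18, -2.22 and -2.17. Probe coordinates were on mm9, per the file headers.

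Of 62976 spots on an array, control spots and 57, 75 and 83 outlier spots were left out, and spots were averaged into 56600 probes, for which more than 50% of the spots had to be flagged well above background. Signals are processed intensity in scanner units. Log2 differences were taken after subtracting the 75th percentile of the non-control probes of an array, so that a change in total RNA per cell is not seen. Dimmer values were set to the lowest signal well above background, which was 5.33, 6.12 and 4.97, unless they were higher. Genes were the names in the files, each read at the probe whose processed signal had the highest mean, and whether a probe was listed for a RefSeq message was read from its accession. With 1 array per group there was no test, and 3 comparisons were counted at 2-fold, 1.5-fold and 8-fold. A share or median of all genes covers genes that passed this limit on either array.

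Signals on all arrays were given for every gene of DNA methylation and every member with a 1.5-fold difference, and the values of further members and probes were chosen after they had been seen. Of the related genes the 3 highest rises and the 3 deepest falls per comparison were named. The 44 members, the related genes and the markers were chosen with earlier results of these data known. Alternatives were quantile scaling, the median of detected probes, normexp background correction (limma 3.58.1 in R 4.3.3, offset 50), the deposited log2 values, other filters on dim probes, means over probes and other folds, and, added after seeing the data, RefSeq-listed probes only and the next probe of *Suv39h2* and *Crebbp*. The counting step was tested on simulated data. Python 3.11.15 was used. The gene models needed to place probes in exons were not used here, and 1 marker gene and 1 probe sequence are not reported here.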

Additional observations from a re-analysis of the deposited data

How the results depend on the processing

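Of 96 recomputed counts and medians over the 44 genes, 81 stayed within their limits (1.5 times a count, or, for a median, the SD between repeat spots combined over both arrays) and 15 moved. With normexp the number of genes at least 2-fold higher or lower on the AtmsKO array than on the WT array was 0 in each direction, and the number higher on the array labelled Atmp38dKO than on the AtmsKO array was 0. The log2 differences behind these counts were then -0.56 for *Cbx8*, 0.81 for *Hdac3* and 0.89 for *Jarid2*. With the mean over all probes of a gene both counts of higher genes were 0, with *Hdac3* at 0.71 and *Jarid2* at 0.39, and the median over the 44 genes for Atmp38dKO against AtmsKO was 0.022, against -0.06. The medians were close enough to zero to change sign, to 0.015 with normexp for Atmp38dKO against AtmsKO and to 0.028 with the mean over probes for AtmsKO against WT. No gene counted at 2-fold changed direction. With RefSeq-listed probes only, the count of lower genes for AtmsKO against WT was 0, because the *Cbx8* probe left the comparison. At 1.5-fold the counts for AtmsKO against WT were 2 higher and 2 lower, 3 lower for Atmp38dKO against WT, and 2 higher and 2 lower for Atmp38dKO against AtmsKO, and at 8-fold all were 0. Of 321 values of single genes 42 moved. Quantile scaling, the median of detected probes, the deposited log2 values, the filters on dim probes and the next probe of *Suv39h2* and *Crebbp* left all counts and medians over the 44 genes within their limits. No paired analysis was possible because 1 array was made per genotype and no result came from a test. The number of arrays and, for dim probes, the signal over background limit the precision of every value.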
